A study of Rattus norvegicus with 27 samples.

Results

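The comparison described here asked whether a high-salt diet was associated with a different change of DNA methylation in 2 colonies of Dahl salt-sensitive (SS) rats. It is the difference of differences (MCW_HS minus MCW_LS) minus (CRL_HS minus CRL_LS), called the interaction below, and it used 15 of the 27 libraries of the series. Genomic DNA of the renal outer medulla was the starting material for reduced representation bisulfite sequencing (RRBS), with 1 rat per library. The first table held 484749 CpG positions covered by 10 or more reads in each of the 15 libraries. Of these, 164329 sites whose pooled level lay from 5 to 95% were tested singly. Counts were also summed over 28130 bins of 500 bp with at least 3 of the 484749 positions and a pooled level in the same range. A methylation level is the percentage of a rat's reads that were methylated, and differences are given in percentage points of the group means.

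All 15 rats were of the Dahl SS strain, from a colony named MCW or a colony named CRL, and no allele or agent other than diet is given for them. MCW_LS rats (n = 3) ate the purified diet AIN-76A with 0.4% NaCl until the age of 8 weeks. CRL_LS rats (n = 4) ate 5L2F, which is not purified and holds 0.75% NaCl, until the same age. MCW_HS and CRL_HS rats (n = 4 each) ate AIN-76A with 4% NaCl for 14 days from the age of 6 weeks. In the CRL colony the salt content therefore changed together with the base diet, and in the MCW colony it did not. The interaction thus compares a salt step within 1 diet with a salt step between diets, and colony, base diet and size of the salt step cannot be told apart. Values of a second experiment are given beside some results with no test. Its MCW SS rats had surgery and were sampled on 0.4% NaCl (PRE_LS, n = 4), or had the same surgery and then 7 days of 4% NaCl with an intra-renal scrambled GapmeR, an antisense oligonucleotide with no named target, at 4 mg/kg (HS_SCR, n = 4).

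In DNA methylation a methyl group is added to cytosine, in mammals mostly where it is followed by guanine (CpG). DNMT enzymes write and copy the mark, and TET enzymes oxidise it. CpG-dense promoters mostly lack it, while most other CpGs carry it in a large share of cells. The outer medulla holds the medullary thick ascending limbs, which reabsorb sodium chloride, and Dahl SS rats are bred for a rise of blood pressure on high salt. RRBS enriches CpG-rich fragments, and bisulfite turns unmethylated cytosines into bases read as T, so that the C and T reads at a position give its methylated and unmethylated counts. A level in a piece of tissue is a mean over its cell types, so another mix of cells and another level within cells cannot be told apart. The tables hold no expression, and the tissue label was not checked against cell type markers. Positions are given in build rn5, and an rn5 gene annotation or genome sequence was not used here, so the bins below carry coordinates and no gene names.

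The libraries held 35040331 to 95102303 counts in the first table and had a median of 24 to 66 reads at the common positions. MCW_LS replicate 2 was the deepest. No pair of libraries had equal counts at more than 3.21% of the positions compared, so each was kept as its own replicate.

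No 500 bp bin had a salt difference that passed the test for a difference between the colonies. The quasi-binomial model with limma-moderated dispersion called 0 of 28130 bins (0% of those tested), and the smallest adjusted p was 0.694. At an unadjusted p below 0.05 stood 1503 bins, 5.34% of those tested. In 693 of them (2.46%) the salt difference was higher in MCW rats and in 810 (2.88%) it was lower. limma on log2 ratios of methylated to unmethylated counts called 0 bins and put 1403 below an unadjusted p of 0.05, and limma on the levels called 0 and put 1413 there. For the mean salt effect over both colonies the model also called 0 bins, with a smallest adjusted p of 0.254 and 1933 bins (6.87%) at an unadjusted p below 0.05. Of these, 1398 bins (4.97%) were higher on high salt and 535 (1.9%) lower. limma called 0 on both scales, with 1754 and 1750 bins below an unadjusted p of 0.05. Bins per chromosome with an unadjusted interaction p below 0.05 ranged from 4.09% on chromosome 20 to 7.31% on the X chromosome.

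No difference between the colonies' salt responses passed the test in mean methylation either. Over the 89565 common sites of 20 to 80%, the salt difference was 0.883 points for MCW and 0.819 points for CRL, an interaction of 0.0632 points (SE 0.410). The exact two-sided permutation test over 2450 assignments of diets within colonies gave p = 0.924. Over all common sites the interaction was 0.0677 points (SE 0.192, exact permutation p = 0.778), and the adjusted p of the exact test was 0.924 in all 4 classes of sites. The direction of these small values turned with the weighting of sites, with the read minimum and with single libraries left out.

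The salt differences of the 2 colonies had little in common across bins. Over the 28130 bins the MCW difference had a median of 0.340 points and an SD of 4.23, and the CRL difference a median of 0.374 points and an SD of 4.12. Their Pearson correlation across bins was 0.0517, given as a description because bins share the same libraries and are not independent. Bins with more reads than the median had a correlation of 0.0898 (14063 bins) and the others 0.0341 (14067 bins). Both colonies were higher on high salt in 31.1% of bins, both lower in 21.01%, MCW higher with CRL lower in 23.5% and MCW lower with CRL higher in 24.4%. In the 2335 bins with a level under 20%, both were higher in 43.2% and both lower in 13.7%. In the 5917 bins over 80% these shares were 26.03% and 25.3%.

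**Figure D1:**
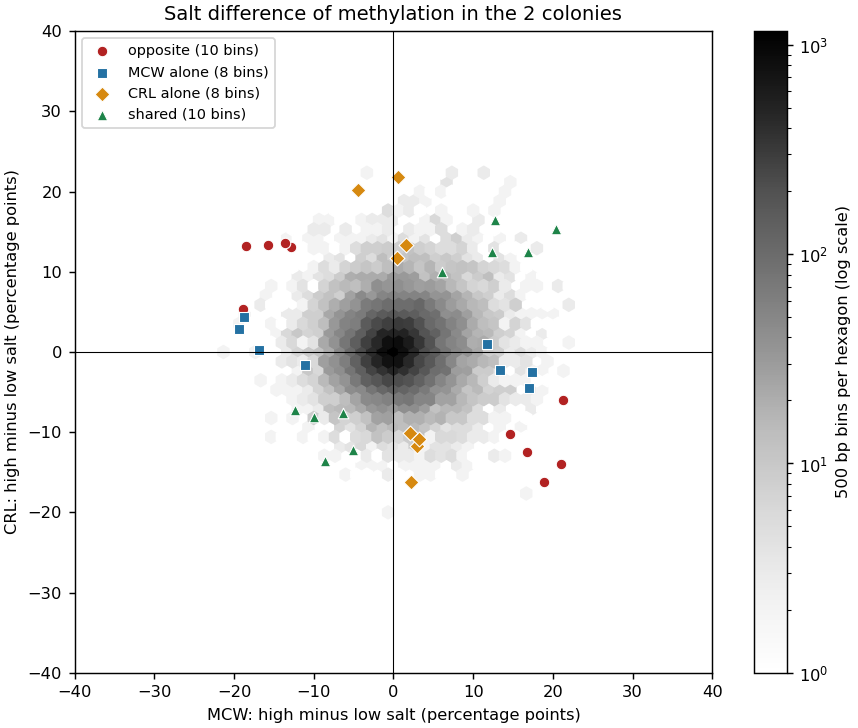
Each 500 bp bin by its high minus low salt difference in MCW rats (horizontal, percentage points) and in CRL rats (vertical, percentage points), shaded by the number of bins per hexagon on a log scale, with the 36 named bins as coloured symbols. The cloud is close to round (Pearson correlation 0.0517), and the named bins, which were taken for their extreme values, lie at its edge.

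Bins were sorted into response patterns by the size of the 2 differences. In 773 bins (2.75% of those tested) both colonies were at least 5 points higher on high salt, and in 207 (0.736%) both were at least 5 points lower. The colonies differed by at least 5 points in opposite directions in 733 bins, 392 with MCW higher and 341 with MCW lower. MCW rats alone, with at least 10 points against under 5 in CRL, were higher in 410 bins and lower in 150. CRL rats alone were higher in 331 and lower in 142. In 19941 bins (70.9%) both differences were under 5 points. With 10 points asked of both colonies, 96 bins were shared higher, 13 shared lower, 35 opposite with MCW higher and 21 opposite with MCW lower. At 15 points these numbers were 10, 2, 7 and 3. The sorting used the differences themselves, so the counts are descriptions and not tests.

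Bins with such a pattern had lower levels and fewer reads than the tested bins as a whole. The median level was 49.8% in the shared higher bins, 58.9% in the shared lower bins, 54.4% in both kinds of opposite bins and 69.1% over all tested bins. Their median number of reads per rat was 122 in the shared higher bins and 104 in the shared lower bins, against 152 over all bins. Depth thus moved with the patterns, and its part in them was not tested. Asking for 20 reads at every position left 9233 tested bins, of which 193 were shared higher (2.09%, against 2.75% of the 28130), 48 shared lower (0.52%, against 0.736%), 55 opposite with MCW higher (0.596%, against 1.39%) and 76 opposite with MCW lower (0.823%, against 1.21%). Without the 2 libraries whose columns carry the letters RP (MCW_LS replicate 2 and CRL_LS replicate 3), each of these patterns held a larger share of the 28218 tested bins. The shared higher bins numbered 843 (2.99%) and the shared lower bins 313 (1.11%). Opposite bins numbered 517 with MCW higher (1.83%) and 480 with MCW lower (1.7%). The rise was not particular to the RP libraries. Leaving out MCW_LS replicate 2 and CRL_HS replicate 3 gave 838 shared higher (2.97%) and 302 shared lower bins (1.07%) of 28169. Opposite bins then numbered 490 with MCW higher (1.74%) and 435 with MCW lower (1.54%). Most omissions of a single library also raised these shares.

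A stricter description asks that the rats of the 2 diets do not overlap at all. The MCW diets did not overlap in 1719 bins (6.11%) and the CRL diets in 865 (3.08%), where MCW_LS had 3 rats and the other groups 4. In 39 bins (0.139%) neither colony overlapped and both differed in the same direction, 28 higher (0.0995%) and 11 lower (0.0391%). In 14 bins (0.0498%) neither overlapped and the colonies differed in opposite directions.

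Among the opposite bins with MCW higher, the smallest interaction p belonged to chromosome 2, 45212501 to 45213000, with 4 common CpGs and 77 to 192 reads per rat. Its levels were 44, 62.9, 51.6 and 48.6% in the MCW_HS rats, 37.5, 29.4 and 31.6% in MCW_LS, 32.97, 34.3, 34.4 and 39.3% in CRL_HS and 58.9, 53.3, 46.8 and 46.8% in CRL_LS. High-salt rats were above all low-salt rats in MCW and below all of them in CRL, with no overlap in either colony. The difference was 18.9 points (SE 4.70) in MCW and -16.2 points (SE 3.24) in CRL, an interaction of 35.2 points (SE 5.71) whose adjusted p was 0.694 in the quasi-binomial model with limma-moderated dispersion. None of the named bins passed that test, with adjusted interaction p from 0.694 to 0.999.

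Of the other opposite bins with MCW higher, chromosome 2, 109881501 to 109882000 (3 CpGs, 45 to 240 reads) had levels of 78.7, 80.4, 72.99 and 79.2% in the MCW_HS rats, 68.1, 57.5 and 64.1% in MCW_LS, 55.6, 60, 53.1 and 70% in CRL_HS and 70.5, 75.9, 66.4 and 66.7% in CRL_LS. MCW diets were apart, whereas 1 CRL_HS rat, at 70%, lay among the CRL_LS rats. Its interaction was 24.8 points (SE 5.58). On chromosome 1, 271978501 to 271979000 had 59.6, 75, 62.9 and 55.4% in the MCW_HS rats, 42.2, 47.02 and 37.5% in MCW_LS, 43.8, 37.5, 50.8 and 59.4% in CRL_HS and 62.5, 59.4, 62.7 and 62.5% in CRL_LS. Here the MCW diets were again apart, and the CRL_LS rats stood within a few points of each other while CRL_HS rats spread below them, so that a CRL_HS rat at 59.4% met the lowest CRL_LS rat. The interaction was 34.9 points (SE 6.93). On chromosome 19, 59722501 to 59723000, the mean was 35.4% ± 8.58 (SD, n = 4) in MCW_HS and 14.1% ± 0.957 (SD, n = 3) in MCW_LS, the CRL groups 19.1% ± 4.36 on high and 25.1% ± 7.17 on low salt (n = 4 each). On chromosome 9, 62972001 to 62972500, the 4 means were 60.2% ± 6.46 in MCW_HS, 43.4% ± 3.81 in MCW_LS, 40.3% ± 8.36 in CRL_HS and 52.8% ± 6.79 in CRL_LS. In all 5 bins the MCW diets did not overlap, and the CRL diets overlapped in 4 of them. Over the 392 bins of this pattern the MCW diets did not overlap in 68 and the CRL diets in 38.

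Opposite bins with MCW lower were led by chromosome 7, 18938001 to 18938500 (4 CpGs, 58 to 505 reads). Its levels were 46.3, 47.3, 37.5 and 39.04% in the MCW_HS rats, 50.5, 60.4 and 55.3% in MCW_LS, 64.9, 64.2, 63.2 and 51.6% in CRL_HS and 54.3, 41.1, 44.7 and 51.7% in CRL_LS. MCW_HS rats were all below MCW_LS rats, and CRL_HS rats were above the CRL_LS rats except for replicate 4. Salt differences were -12.8 points (SE 3.80) in MCW and 13.04 points (SE 4.38) in CRL, an interaction of -25.9 points (SE 5.80) with an adjusted p of 0.694 in the limma-moderated model. The bin on chromosome 8, 74935501 to 74936000, had 18.8, 19.4, 26.5 and 25% in the MCW_HS rats, 37.3, 42.4 and 28.4% in MCW_LS, 40, 35.8, 19.7 and 31.3% in CRL_HS and 20.5, 12.6, 16.9 and 22.5% in CRL_LS. The MCW diets were apart, and CRL_HS replicate 3 lay within the CRL_LS range. On chromosome 2, 263218001 to 263218500, the mean was 59.4% ± 4.45 (SD, n = 4) in MCW_HS and 78.3% ± 8.4996 (SD, n = 3) in MCW_LS, with 75.4% ± 9.13 and 70.03% ± 7.38 in CRL_HS and CRL_LS.

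The last pair of opposite bins rested on few rats. At chromosome 2, 89483501 to 89484000 (8 CpGs) levels were 50.2, 47.2, 55.6 and 46.6% in the MCW_HS rats, 50.4, 77.1 and 69.4% in MCW_LS, 68.9, 60.4, 82.8 and 50.9% in CRL_HS and 51.2, 56.9, 54.5 and 47.1% in CRL_LS. MCW_LS replicates 2 and 3 and CRL_HS replicates 1 to 3 stood above 60%, while MCW_LS replicate 1 and CRL_HS replicate 4 lay among the other diet's rats. The reads there were 3378 in MCW_LS replicate 2 and 1863 in CRL_HS replicate 3, and 204 to 894 in the other rats. On the X chromosome, 98895001 to 98895500, MCW_LS rats had 55.7, 77.4 and 78.2% and CRL_HS rats 74.2, 67.6, 86.8 and 57.4%, against 60.4, 45, 46.4 and 55.7% in MCW_HS and 57.8, 46.3, 62.1 and 66.7% in CRL_LS. Here too MCW_LS replicate 2 and CRL_HS replicate 3 had the most reads, 687 and 551 against 54 to 293. Depth and level moved together in these rats, and the part of depth in the difference was not tested.

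In the bins where MCW rats alone were higher on high salt, MCW_LS rats were the low group. The bin at chromosome 2, 160077501 to 160078000 (4 CpGs) had 21.1, 22.6, 24.8 and 23.2% in the MCW_HS rats, 13.9, 6.94 and 7.77% in MCW_LS, 21.4, 21.6, 35.8 and 23.1% in CRL_HS and 34.9, 20, 29.8 and 26.2% in CRL_LS. MCW_LS rats were below every other rat, and MCW_HS rats stood near the CRL rats of both diets. At chromosome 3, 13750501 to 13751000, which holds 12 CpGs and 304 to 766 reads, the levels were 70.4, 71.4, 68.9 and 71.1% in the MCW_HS rats, 61.8, 55.5 and 58.9% in MCW_LS, 69.7, 63.99, 67.8 and 65.1% in CRL_HS and 62.1, 64.5, 68.1 and 67.7% in CRL_LS. All MCW_HS rats were above all MCW_LS rats, and the CRL diets overlapped. MCW and CRL differences were 11.7 points (SE 1.89) and 1.04 points (SE 1.91). The third bin, chromosome 5, 162850501 to 162851000, had 63.9% ± 3.18 in MCW_HS and 46.96% ± 10.2 in MCW_LS, and the fourth, chromosome 11, 33583501 to 33584000, had 42.3% ± 1.40 and 24.9% ± 2.98. Their CRL differences were -4.49 points (SE 3.17) and -2.51 points (SE 6.12).

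MCW rats alone were lower in the bin at chromosome 10, 10883001 to 10883500, where levels were 58.7, 65.9, 66.2 and 70.7% in the MCW_HS rats, 77.6, 89.6 and 87.1% in MCW_LS, 84.6, 81.1, 89.7 and 81.8% in CRL_HS and 75.8, 90, 86.8 and 73.5% in CRL_LS. MCW_HS rats stood below every other rat. Reads were again concentrated in MCW_LS replicate 2 (1372) and CRL_HS replicate 3 (1420), with 40 to 278 in the other rats. At chromosome 9, 113966001 to 113966500 MCW_HS rats had 53.9, 50.7, 39.8 and 45.6% and MCW_LS rats 67.4, 66.3 and 65%, with 59.9% ± 5.10 in CRL_HS and 55.5% ± 4.15 in CRL_LS. The MCW diets were far apart there, and reads were even (60 to 205). Differences at chromosome 10, 105696501 to 105697000 were -16.9 points (SE 4.56) in MCW and 0.260 points (SE 3.69) in CRL. At chromosome 17, 57666001 to 57666500 they were -11.1 points (SE 3.70) and -1.63 points (SE 1.95). MCW diets did not overlap in any of these 8 bins, which were taken for a small interaction p. In the whole patterns they did not overlap in 146 of the 410 bins with MCW alone higher and 56 of the 150 with MCW alone lower.

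Of the bins where CRL rats alone were higher, a clear case was chromosome 10, 87064001 to 87064500 (6 CpGs, 96 to 300 reads). Its levels were 72.4, 70.3, 66.1 and 65.1% in the MCW_HS rats, 70.3, 62.1 and 71.4% in MCW_LS, 70.8, 73.7, 62.2 and 72.9% in CRL_HS and 46.4, 56.5, 41.3 and 47.9% in CRL_LS. Every CRL_LS rat was below every other rat, and the MCW rats of both diets stood with the CRL_HS rats. The CRL difference was 21.9 points (SE 4.10) and the MCW difference 0.570 points (SE 3.43), with an adjusted interaction p of 0.816 in the limma-moderated model. At chromosome 10, 61790501 to 61791000 the mean was 46.5% ± 13.4 (SD, n = 4) in CRL_HS and 26.2% ± 5.50 (SD, n = 4) in CRL_LS, but CRL_HS replicate 4, at 27.8%, lay within the CRL_LS range. Both chromosome 13, 95672001 to 95672500 and chromosome 10, 111939501 to 111940000 had CRL diets apart. The CRL difference was 13.4 points (SE 2.57) in the bin on chromosome 13, which shared its levels in every rat to within 2 points with 1 other bin, and 11.7 points (SE 2.51) in the bin on chromosome 10.

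The named bins where CRL rats alone were lower had the CRL diets apart in all 4, against 30 of the 142 bins of that pattern. At chromosome 4, 7233001 to 7233500 the levels were 32.4, 36.8, 26.3 and 20.1% in the MCW_HS rats, 23.1, 23.3 and 33.7% in MCW_LS, 12.5, 8, 20.6 and 16.9% in CRL_HS and 28.2, 39.4, 31.1 and 24% in CRL_LS. CRL_HS rats were all below CRL_LS rats, and only 1 MCW rat fell under the highest CRL_HS rat. The other 3 bins were chromosome 5, 160840501 to 160841000, chromosome 5, 168625501 to 168626000 and chromosome 8, 85521501 to 85522000. Their CRL differences were -11.7 points (SE 2.81), -10.8 points (SE 3.65) and -10.1 points (SE 2.06), and their MCW differences 3.01 points (SE 4.71), 3.16 points (SE 3.28) and 2.12 points (SE 3.03). The adjusted interaction p of the one-colony bins ran from 0.802 to 0.874 in the limma-moderated model, so a difference between colonies was not shown for any of them.

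**Figure D2:**
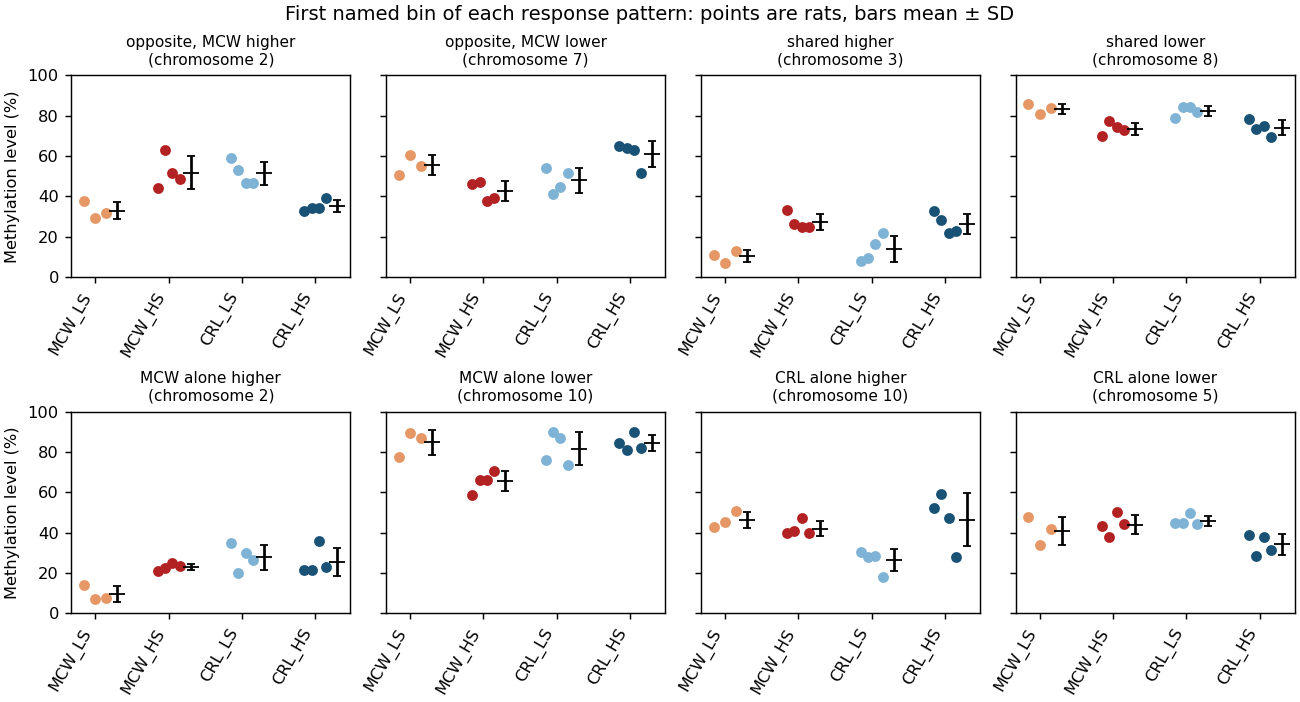
Methylation level (percent, vertical) of each rat in the first named bin of 8 response patterns, by group, where points are rats and bars the mean ± SD (n = 3 in MCW_LS and 4 in the other groups). In the opposite bin on chromosome 2 the diets are apart in both colonies and in opposite order, and in the shared bins on chromosomes 3 and 8 they are apart in the same order.

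In 8 of the 10 named shared bins the diets did not overlap in either colony. This held for 24 of all 773 shared higher bins and 4 of all 207 shared lower bins. At chromosome 3, 13169501 to 13170000 (3 CpGs, 60 to 185 reads) the levels were 33.3, 26.3, 25 and 24.7% in the MCW_HS rats, 11.1, 7.03 and 13.1% in MCW_LS, 32.6, 28.1, 21.8 and 22.9% in CRL_HS and 7.92, 9.46, 16.2 and 21.7% in CRL_LS. High-salt rats were above all low-salt rats in both colonies, although the highest CRL_LS rat came close to the lowest CRL_HS rat. The mean salt effect was 14.7 points (SE 2.44), with an adjusted p of 0.254 in the limma-moderated model. The bin with the most CpGs of all the named bins, 18, was chromosome 4, 66148001 to 66148500, with 315 to 1494 reads per rat. It had 54.2, 52.4, 54.3 and 59.2% in the MCW_HS rats, 50.1, 47.7 and 49% in MCW_LS, 56.5, 52.6, 51.9 and 54.2% in CRL_HS and 41.1, 44.96, 40.2 and 49.02% in CRL_LS. Diets did not overlap in either colony, and the mean salt effect was 8.05 points (SE 1.39).

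Another 3 bins were higher in both colonies with no overlap. At chromosome 3, 169223001 to 169223500 the levels were 45.4, 61.2, 53.97 and 45.3% in the MCW_HS rats, 25.98, 23.2 and 43.96% in MCW_LS, 42.03, 41.5, 46.7 and 45.9% in CRL_HS and 27.1, 32.2, 28.4 and 27.1% in CRL_LS. The MCW_LS rat at 43.96% came within 2 points of the lowest MCW_HS rat, and the other low-salt rats of both colonies were at 32.2% or below. The mean salt effect was 17.9 points (SE 3.88) with an adjusted p of 0.254 in the limma-moderated model, and without that rat (MCW_LS replicate 3) it was 21.1 points with an adjusted p of 0.0481, the single bin called when a library was left out. At chromosome 5, 163893501 to 163894000 the MCW difference was 12.8 points (SE 4.36) and the CRL difference 16.4 points (SE 3.17). At chromosome 12, 4100001 to 4100500 the pair was 12.3 points (SE 3.86) and 12.4 points (SE 2.69). In all 5 bins the interaction was between -3.91 and 5.07 points.

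Of the bins lower in both colonies, chromosome 8, 14512501 to 14513000 (8 CpGs) had 69.8, 77.3, 74.3 and 72.9% in the MCW_HS rats, 85.8, 81.00 and 83.8% in MCW_LS, 78.6, 73.5, 75.1 and 69.4% in CRL_HS and 78.8, 84.1, 84.2 and 82.01% in CRL_LS. Neither colony overlapped, and in CRL the lowest CRL_LS rat stood just above the highest CRL_HS rat. Its mean salt effect was -9.04 points (SE 1.55). Levels at chromosome 1, 94143001 to 94143500 were 87.5, 82.4, 89.2 and 88.7% in the MCW_HS rats, 90.5, 91.7 and 93.9% in MCW_LS, 80, 77.1, 77.8 and 80.95% in CRL_HS and 93.8, 89.8, 87.01 and 93.9% in CRL_LS. Neither colony overlapped there, and the CRL diets were further apart than the MCW diets, -12.2 points (SE 1.90) against -5.10 points (SE 1.87). At chromosome 14, 8868001 to 8868500, a highly methylated bin, low-salt rats had 95.5% ± 1.30 (MCW) and 95.3% ± 1.59 (CRL) and high-salt rats 89.1% ± 5.62 and 87.7% ± 2.72. The diets of the CRL colony overlapped in the last pair, chromosome 9, 115924501 to 115925000 and chromosome 2, 209631001 to 209631500, whose mean salt effects were -9.79 points (SE 3.41) and -11.1 points (SE 2.98). The adjusted p of the mean salt effect ran from 0.254 to 0.354 in the 10 shared bins, so none passed.

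Adjacent bins were also compared. Of 2322 pairs of bins that touch, 15 (0.646%) had an unadjusted interaction p below 0.05 on both sides, 10 of them in the same direction. The correlation of the interaction across pairs was 0.0616. For the mean salt effect these numbers were 38 pairs (1.64%), 26 in the same direction, and 0.188. Neighbouring bins can share sequenced fragments, and no p is given for the correlations. The pair with the smallest larger p of the interaction was 50138501 to 50139500 on chromosome 10. Its bins differed by 17.5 and 8.74 points in MCW and by -6.84 and -6.40 points in CRL. Another of the 10 pairs, 50778501 to 50779500 on the same chromosome, also held a bin of 3 CpGs with an MCW difference of 17.5 points. Whether the 2 pairs are separate measurements was not tested.

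Single CpG sites gave calls where bins did not. The quasi-binomial model with limma-moderated dispersion called 149 of 164329 sites (0.0907%) for the interaction, 140 with a lower salt difference in MCW (0.0852%) and 9 with a higher one (0.00548%). At an unadjusted p below 0.05 stood 9698 sites (5.9%), 4766 (2.9%) with MCW higher than CRL in the salt difference and 4932 (3%) with MCW below CRL. limma on log2 ratios called 0 sites, with 8330 below an unadjusted p of 0.05, and limma on levels called 0, with 8397. The salt difference had opposite signs in the colonies at all 149 sites, and at 140 both differences were at least 5 points. Over the 149 sites the MCW difference had a median of -23.8 points and the CRL difference one of 14.5 points. The MCW diets did not overlap at 58 of the 149 sites (9286 of all tested sites, 5.65%), the CRL diets at 16 (5104, 3.11%) and neither at 9, where all tested sites held 114 with neither overlapping and opposite directions (0.0694%). The last site inside the threshold, at 8706561 on chromosome 7, had an interaction of -19.1 points and the next one outside, at 10883491 on chromosome 10, had -54.2 points. For the mean salt effect the model called 0 sites, with 13179 (8.02%) at an unadjusted p below 0.05, 8271 higher on high salt (5.03%) and 4908 lower (2.99%), and limma called 0 on both scales, with 10370 on log2 ratios and 10501 on levels. Without MCW_LS replicate 3 it called 585, without MCW_HS replicate 1 it called 24 and without MCW_LS replicate 1 it called 1.

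The called sites had a common profile over rats that the group labels do not describe. At the 140 sites with the lower MCW difference, the median level was 11.1, 7.35, 7.78 and 11.5% in the MCW_HS rats and 13.04, 60.4 and 38.5% in the MCW_LS rats. It was 38.7, 30.7, 63.7 and 15.98% in the CRL_HS rats and 16.7, 14.7, 31.8 and 19.9% in the CRL_LS rats. MCW_LS replicate 2 and CRL_HS replicate 3 stood highest, while MCW_LS replicate 1 was close to the MCW_HS rats and CRL_HS replicate 4 lay among the CRL_LS rats. Depth was also greatest in these 2 rats. Reads over the library's median were 4.92 in MCW_LS replicate 2 and 5.21 in CRL_HS replicate 3, against 1.37 to 2.96 in the other 13 rats. Over all tested sites this ratio lay between 0.837 and 1 in each rat. A lower MCW difference asks for high levels in MCW_LS and CRL_HS, so the choice of sites fixes in part which rats are highest. Both libraries were the highest of their own group at 111 of the 149 called sites (74.5%, against 10.6% of all tested sites). At the 140 sites they had the 2 greatest relative depths at 82 (58.6%, against 1.46%). The part of depth in the calls was not tested.

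**Figure D3:**
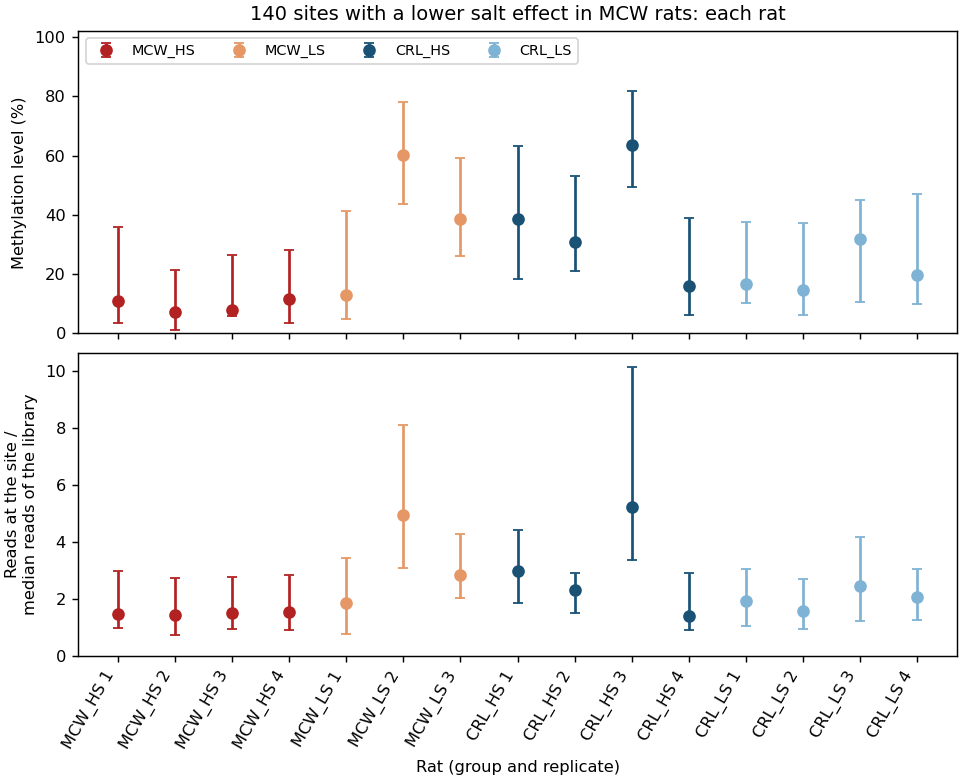
Median (points) and quartiles (bars) over the 140 sites with a lower salt difference in MCW rats, for each of the 15 rats: methylation level in percent (upper) and reads at the site over the library's median reads (lower). MCW_LS replicate 2 and CRL_HS replicate 3 stand highest in both, at 60.4% and 63.7% and at 4.92 and 5.21 times the library median.

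The number of called sites turned on the same 2 libraries. Without MCW_LS replicate 2 the limma-moderated model called 6 sites, and without CRL_HS replicate 3 it called 7, all of which were among the 149. Without MCW_HS replicate 3 it called 72 and without CRL_LS replicate 2 69. Without CRL_LS replicate 3 the number was 99, and it was 245 without MCW_LS replicate 1 and 227 without MCW_LS replicate 3. Leaving out both MCW_LS replicate 2 and CRL_HS replicate 3, which was done after seeing these levels, left 4 called sites. Of the 149 sites, 132 could be tested again in that smaller set. Their median interaction went from -40.1 to -25.3 points. These sites were called on libraries that include the same 13, so this value is a description.

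**Figure D4:**
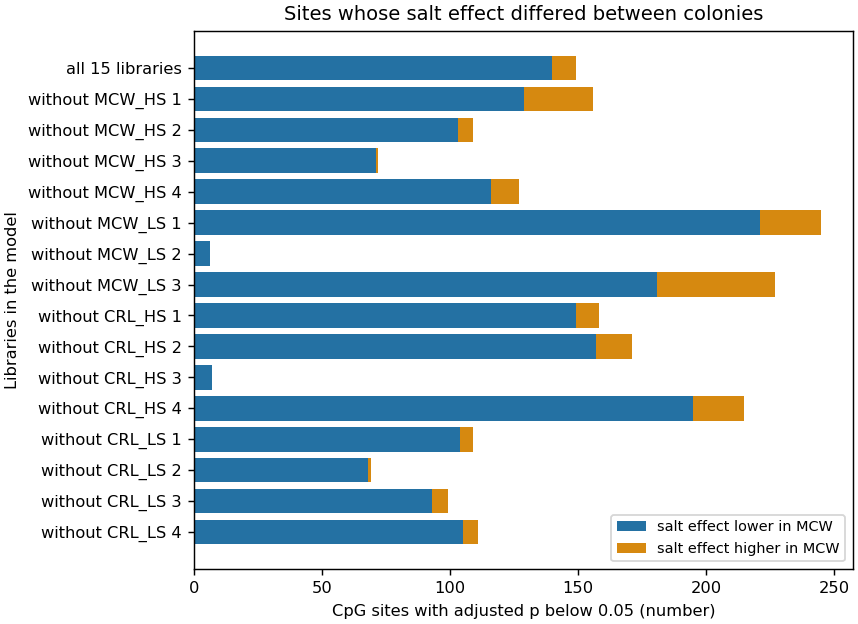
Number of CpG sites with an adjusted interaction p below 0.05 (horizontal) with all 15 libraries and with each library left out (vertical), divided by the direction of the salt difference in MCW against CRL. The count is 149 with all libraries, 6 without MCW_LS replicate 2, 7 without CRL_HS replicate 3 and 245 without MCW_LS replicate 1.

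Those 4 sites carried the same counts in every rat. They are at 13554770 on chromosome 1, 95169606 on chromosome 5 and 46816649 and 46857335 on chromosome 14, so they count as 1 measurement. Levels there were 10, 22.2, 18.2 and 0% in the MCW_HS rats, 27.3, 53.7 and 59.4% in MCW_LS, 75, 68.8, 80.3 and 53.8% in CRL_HS and 16.7, 32.4, 42.1 and 50% in CRL_LS. Neither colony overlapped, and the site had 12 to 436 reads per rat, with 203 in MCW_LS replicate 2 and 436 in CRL_HS replicate 3. The difference was -34.2 points (SE 11.04) in MCW and 34.2 points (SE 9.17) in CRL, and without the 2 libraries -30.7 and 30.6 points (adjusted p = 0.0254, limma-moderated model). Of the 149 sites, 17 had counts equal to those of another position in all rats, against 51466 of the 484749 common positions. Many of those common positions lay outside the tested range of levels. With equal counts taken once, 139 of the 149 called and 156314 of the 164329 tested sites remained. The cause of equal counts was not tested. A site at 13504816 on chromosome 1 had nearly the same levels, 10, 27.6, 18.8 and 0% in MCW_HS, 30, 55.3 and 58.5% in MCW_LS, 72.97, 68.8, 80.1 and 53.8% in CRL_HS and 25, 36.8, 47.1 and 53.3% in CRL_LS.

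At 2 of the remaining named sites with a lower MCW difference the same 2 libraries had the highest levels. At 89391653 on chromosome 16 the levels were 8.21, 1.32, 8.28 and 0.415% in the MCW_HS rats, 5.80, 69.2 and 47.7% in MCW_LS, 30.3, 31.9, 62.6 and 11.7% in CRL_HS and 16.7, 8.73, 18.2 and 23.7% in CRL_LS, at 139 to 1142 reads. MCW_LS replicate 1 lay within the MCW_HS range and CRL_HS replicate 4 within the CRL_LS range, so both colonies overlapped. The interaction was -53.6 points (SE 21.7), with each rat weighted equally. The adjusted p of 0.00139 came from the limma-moderated model, which weighs rats by their reads. Reads were 1142 in MCW_LS replicate 2 and 786 in CRL_HS replicate 3, against 139 to 395 in the others. At 3524902 on chromosome 13 MCW_HS rats had 3, 0, 0 and 0% and MCW_LS rats 6.90, 40.6 and 17.9%, with 12.8, 13.3, 29.7 and 0.971% in CRL_HS and 8.08, 3.85, 7.14 and 3.12% in CRL_LS. MCW_LS replicate 2 had the highest level of all 15 rats there and CRL_HS replicate 3 the next. The profile differed at 13561020 on chromosome 1, with 18.2, 19.05, 14.1 and 3.28% in the MCW_HS rats, 27.3, 43.9 and 48.2% in MCW_LS, 65.2, 45.2, 74.5 and 40% in CRL_HS and 25, 30, 41.7 and 19.6% in CRL_LS, at 11 to 458 reads. MCW_LS replicate 3 was above replicate 2 there, CRL_HS replicates 3 and 1 had the highest levels, and the diets overlapped in CRL but not in MCW. The interaction was -53.3 points (SE 11.95).

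Sites with a higher salt difference in MCW were few, and 5 of the 9 are named here. Some rested on thin coverage, such as 96143975 on chromosome 3 (10 to 40 reads), where levels were 100, 100, 87.1 and 100% in the MCW_HS rats, 71.4, 55 and 66.7% in MCW_LS, 66.7, 63.6, 50 and 20% in CRL_HS and 86.7, 85.7, 72.7 and 80% in CRL_LS. Neither colony overlapped, and the interaction was 63.6 points (SE 12.6) with an adjusted p of 0.0176 in the limma-moderated model. Similar values held at 123590598 on chromosome 1 (10 to 90 reads, interaction 42.5 points (SE 6.59)) with neither colony overlapping. At 43292243 on chromosome 6 (10 to 68 reads) all CRL_HS and all MCW_LS rats were at 0%, the CRL_LS rats at 20, 9.09, 33.3 and 16.7% and the MCW_HS rats at 0, 33.3, 18.8 and 0%. Others had very high depth. At 39272925 on chromosome 6 (626 to 3304 reads) levels were 40.6, 66.6, 60.97 and 60.4% in the MCW_HS rats, 34.5, 9.75 and 39.6% in MCW_LS, 46.95, 60.4, 34.4 and 58.6% in CRL_HS and 53.9, 57.1, 41.6 and 57.99% in CRL_LS, with MCW_LS replicate 2 far below every other rat and at the greatest depth. The site at 46861726 on chromosome 14 differed from it by less than 3 points in every rat, and 3 more sites differed from that site by less than 2 points.

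The CpGs around a called site mostly did not share its interaction in size. For 141 called sites the same bin held at least 2 other common sites, and their pooled interaction had a median of -0.186 points against -37.97 points at the called sites. The sign was the same in 88 of 141. Some bins stood apart from this median. At 89483927 on chromosome 2 the interaction was -23.5 points at the site and -27.2 points in the rest of the bin. At 98895445 on the X chromosome these values were -39.5 and -26.8 points. The median level was 27.2% at the called sites, 71.8% in the rest of their bins and 52.2% over all tested sites. In the 125 tested bins that held a called site, which include that site, the smallest adjusted interaction p was 0.802 in the limma-moderated model. The 149 sites formed 116 clusters within 50 kb, 101 of them with 1 site. At 13 of the 149 sites the mean depth was over 10 times the median depth, against 6868 of the 164329 tested sites. The median called site was 2.42 times as deep as the median.

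In the second experiment the 140 sites stood differently. Of these, 137 had at least 10 reads in all rats of the second table. Median levels were 14.97, 14.2, 14.3 and 11.4% in the PRE_LS rats and 17.2, 19.9, 30.8 and 17.98% in the HS_SCR rats. No rat of that experiment came near the 60.4% of MCW_LS replicate 2, and the 2 groups did not overlap. HS_SCR minus PRE_LS was positive at 124 sites and negative at 13, with a median of 3.82 points. With sites of equal counts taken once, 114 of 127 were positive. Over the 154663 tested sites with such reads in the second table, 51.5% were positive and the median was 0.135 points. At the 137 sites MCW_HS minus MCW_LS had a median of -24.3 points. Surgery, GapmeR, days on salt and depth differ between the experiments, so the values are side by side and were not tested.

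The response patterns of bins were set beside the second experiment in the same way. Over 26767 bins present in both tables, HS_SCR minus PRE_LS had a median of 0.0423 points and was positive in 51.5%. In the 746 shared higher bins the median was -0.332 points, positive in 43.8%, and without HS_SCR replicate 4 it was 1.27 points, positive in 62.6%. Over all bins that omission gave 0.188 points and 54.5%. In the 379 bins where MCW alone was higher, the median was -0.182 points (48.02% positive), and without HS_SCR replicate 4 it was 0.855 points (59.9%). In the 144 where MCW alone was lower it was 0.475 points (62.5%), and 0.437 points (56.9%) without that replicate. In the 197 shared lower bins it was -0.0942 points (47.7%), and 0.255 points (53.8%) without it. Opposite bins were positive in 51.1% (372 with MCW higher) and 51.6% (322 with MCW lower), and in 60.2% and 58.7% without that replicate. For CRL alone the shares were 49.04% (314 bins higher) and 45.7% (138 lower), and 60.8% and 55.1% without it. The omission thus raised the share in every pattern but MCW alone lower, and the rise was not particular to the shared higher bins. Of the named bins with a measured MCW difference of at least 5 points, 27 were in both tables and 16 had the same sign of the difference in both. Those 16 held all 5 shared lower bins and 4 of the 5 shared higher bins, with 4 of 9 opposite bins and 3 of 8 bins of MCW alone. At chromosome 3, 169223001 to 169223500, for example, levels were 19.1% ± 1.40 in PRE_LS and 28.7% ± 8.37 in HS_SCR. At chromosome 2, 45212501 to 45213000 they were 64.3% ± 7.77 in PRE_LS and 53.5% ± 11.3 in HS_SCR. These bins held 6 and 2 CpGs for PRE_LS and HS_SCR, against 3 and 4 for the colonies. The CpGs of a bin could thus differ between the experiments. The part of this in the values and signs above was not tested.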

How the data were processed

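The deposited tables hold, per the file headers, counts of methylated (C) and unmethylated (T) reads per rat at each CpG position. A missing value was read as no reads. The submitters' processing notes name Trim Galore 0.2.5 for trimming and rn5 as the build. Aligner and caller were not given in the sources used here. Each column name held the animal number of 1 rat. RP is written beside MCW_LS replicate 1 in its title but beside replicate 2 in the description and column name, which were followed. The 4 HS_DT libraries were not used here.

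Counts of each site or 500 bp bin were fitted by a quasi-binomial logistic regression with 1 value per rat, over all 15 libraries. The dispersion was moderated with squeezeVar of limma 3.58.1 and held at 1 or more. The interaction and the mean salt effect were tested by two-sided F tests on the deviance, adjusted by the Benjamini-Hochberg method over all items tested, with calls at an adjusted p below 0.05. SE is the standard error of a difference of group means, with each rat weighted equally. The quasi-binomial model instead weighs each rat by its reads, so its p can diverge from the printed difference and SE. Mean methylation was compared by exact permutation of diets within colonies. Computations used Python 3.11.15, numpy 2.4.6, scipy 1.17.1, pandas 2.3.3, matplotlib 3.10.9 and R 4.3.3. The model was tested on simulated data with the depth of these libraries, with interactions planted at items of middle level. It recovered few single sites at the sizes tried, which were smaller than the median interaction of the called sites. Recovery at that larger size was therefore not tried. False calls at sites were more than the adjusted p allows for most sizes tried. Calls at single sites carry these limits.

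Named bins were those with the smallest interaction p per direction among opposite bins (5) and one-colony bins (4), and the smallest p of the mean salt effect among shared bins (5). Named sites were the 5 per direction with the smallest interaction p and the 3 with the smallest p of the mean salt effect, 1 per 50 kb. Items within 2 points of one already taken in every rat were passed over. The comparison, patterns and lists were chosen with earlier results of these data known. Replicate numbers were checked as pairs and did not pair rats.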

Additional observations from a re-analysis of the deposited data

Results flagged for a closer look

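A rat stood far from the other 3 of its group, by Dixon's criterion for groups of 4, in 9 of the 174 groups checked over the named bins and sites. Chance gives about 1 in 20 groups. In the opposite bin on chromosome 1 at 271978501 the lowest CRL_LS rat had 59.4%, next to 62.5% or more in the others. At 62972001 on chromosome 9 the lowest MCW_HS rat had 50.5%, and at 18938001 on chromosome 7 the lowest CRL_HS rat had 51.6%. In the bins of MCW alone, the highest CRL_HS rat had 35.8% at 160077501 on chromosome 2 and the lowest MCW_HS rat 59.2% at 162850501 on chromosome 5. In the bins of CRL alone, the highest MCW_HS rat had 47.2% at 61790501 on chromosome 10 and the highest CRL_LS rat 49.6% at 160840501 on chromosome 5. Among sites, the lowest MCW_HS rat had 87.1% at 96143975 on chromosome 3, with 100% in the others, and the highest had 3% at 3524902 on chromosome 13, with 0% in the others.

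The salt difference itself differed between the colonies by the interaction test of the quasi-binomial model at 149 sites, including the 10 named ones. Their interactions were 63.6 points at 96143975 on chromosome 3, 31.8 at 39272925 and 32.8 at 43292243 on chromosome 6, 31.0 at 46861726 on chromosome 14 and 42.5 at 123590598 on chromosome 1. In the other direction they were -53.3 points at 13561020 and -62.2 at 13504816 on chromosome 1, -68.3 at 95169606 on chromosome 5, -29.7 at 3524902 on chromosome 13 and -53.6 at 89391653 on chromosome 16. limma called 0 sites on log2 ratios and 0 on levels. The quasi-binomial model called 4 sites without both MCW_LS replicate 2 and CRL_HS replicate 3, all with the same counts. Values by rat, and the counts without single libraries, are given with the results.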

How the results depend on the processing

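No bin was called for the interaction under any setting run, including wider bins and each library left out. The 149 called sites became 85 at a minimum of 20 reads (83 of them among the 149, of which 100 were tested), 0 with no filter on the pooled level, 0 under limma on log2 ratios and on levels, 7 without the RP libraries and 4 without both MCW_LS replicate 2 and CRL_HS replicate 3, a setting chosen after seeing the data. In that last setting the interaction of mean methylation was 0.194 points over all sites and 0.431 points over 80%. They were 139 without positions of equal counts, 158 without the deepest positions and 149 with no lower bound on the dispersion. With each library left out they ranged from 6 to 245, the calls of the mean salt effect from 0 to 585 at sites and from 0 to 1 in bins. Replicate numbers did not pair rats: deviations of same-numbered rats correlated from -0.113 to 0.0450 (21 pairs), those of other rats from -0.0688 to 0.0904, and 3 of 15 libraries correlated best with their own number. With the replicate number as a block, 111 sites were called (105 of the 149) and 0 bins, and with a block for animal numbers 108 sites (104 of the 149). The interaction of mean methylation changed sign to -0.111 points over all sites weighted by reads, to -0.267 at 20 to 80% with 20 reads and -0.00311 there with the replicate block, and over 80% to -0.0832 weighted by reads and -0.0137 with 20 reads. With libraries left out it ranged from -0.0411 to 0.175 over all sites, from -0.0202 to 0.157 under 20%, from -0.138 to 0.268 at 20 to 80% and from -0.110 to 0.287 over 80%. The causes of these changes were not tested. With at least 5 sites per bin the patterns held 229, 41, 78 and 91 of 10642 tested bins, or 2.15, 0.385, 0.733 and 0.855% (shared higher, shared lower, opposite with MCW higher and lower). Of the checks on named sites under other settings, 85 lost and 11 gained the threshold and 310 kept their side. At 10 reads a level moves in steps of 10 points.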

Other observations

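Among the named sites of the mean salt effect, 2 neighbours 28 bp apart on chromosome 12 had salt differences of opposite sign in both colonies. They were singled out after their values were seen. At 48045523 the levels were 37.3, 67.9, 51.3 and 64.0% in the MCW_HS rats, 38.8, 22.3 and 43.9% in MCW_LS, 47.4, 62.7, 68.0 and 38.2% in CRL_HS and 33.9, 28.9, 29.9 and 39.4% in CRL_LS. High salt minus low salt was 20.1 points (SE 9.51) in MCW and 21.03 points (SE 7.27) in CRL. At 48045495 they were 66.7, 32.1, 53.8 and 34.7% in the MCW_HS rats, 61.5, 79.6 and 58.5% in MCW_LS, 52.2, 34.1, 34.2 and 55.9% in CRL_HS and 63.5, 67.1, 69.4 and 65.2% in CRL_LS, with differences of -19.7 points (SE 10.5) and -22.2 points (SE 5.94). Diets overlapped in both colonies at the former and in MCW at the latter. In each of the 15 rats the levels at the 2 positions added up to between 94.04 and 105.1%, with a median of 100%. The second position had 1.86 to 2.06 times the reads of the other, with a median of 2. The adjusted p of the mean salt effect was 0.159 and 0.143 in the limma-moderated model, so neither passed, and in the second experiment the mean levels were 74.8% ± 5.59 in PRE_LS and 68.3% ± 5.88 in HS_SCR at the former and 24.4% ± 5.59 in PRE_LS and 32.0% ± 4.21 in HS_SCR at the latter.

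At 151118173 on chromosome 2 all 7 low-salt rats were at 100%, and the high-salt rats at 94.1, 84.8, 92.0 and 90.0% in MCW and 93.5, 78.6, 86.7 and 83.3% in CRL, at 22 to 58 reads. The mean salt effect was -12.1 points (SE 1.86), with an adjusted p of 0.159 in the limma-moderated model. At 101565233 on chromosome 3 the MCW_LS rats were also at 100% and the CRL_LS rats at 100, 88.9, 83.3 and 100%, against 100, 71.4, 73.9 and 64.7% in MCW_HS and 71.4, 69.2, 70.0 and 77.8% in CRL_HS, at 10 to 28 reads. The sites at 162205817 on chromosome 4 and 98337826 on chromosome 6 had mean salt effects of 19.3 points (SE 3.91) and 18.7 points (SE 4.10), with the diets apart in both colonies and MCW_LS replicate 2 lowest of all rats at both, at 16.6% and 18.02%. Their reads were close in every rat, such as 42 and 44 in MCW_HS replicate 1 and 169 and 172 in MCW_LS replicate 2. Whether the sites are separate measurements was not tested.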
